A study of Mus musculus with 12 samples.

Results

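The genes described here are 8 components and regulators of the complement system, C3, Cfb, C4b, C1ra, Serping1, Cfi, Cd55 and C3ar1, chosen by name from the 24062 genes counted in mouse kidneys. The choice was made with earlier results of these data known. All 8 were found in the count table and all 8 passed the filter on low counts, which left 14970 genes for testing. RNA-seq was done on whole-kidney total RNA of 12 mice of a Pkd1 model, in which loss of Pkd1, the gene for polycystin-1, gives kidney cysts. The labels' protocols describe adult mice 6 to 8 weeks old, induced with tamoxifen in all groups, that carried Cre (CrePlus) or did not (CreMinus). The mice either lost 1 kidney (UNx, unilateral nephrectomy) or had a sham operation, and kidney tissue was collected 4 weeks later. The groups were UNx CrePlus, UNx CreMinus, sham CrePlus and sham CreMinus, with 3 libraries each, numbered here as replicates 1 to 3 in the order of deposit. The sources used here do not give the promoter that drives Cre, the deleted part of Pkd1, the strain or the sex of the mice. One library, sham CrePlus replicate 1, carries no animal number in its title.

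Complement is a cascade of plasma and tissue proteins that marks surfaces for removal and calls in inflammatory cells. The classical pathway starts with C1q and the proteases C1r and C1s, which cut C4, the alternative pathway amplifies through factor B, and both converge on the cutting of C3. Regulators such as the C1 inhibitor, factor I and decay-accelerating factor stop the cascade at separate steps, and receptors such as the C3a receptor carry its signals into cells. The liver makes most circulating complement, and kidney tubule cells and macrophages are known to make some of it locally.

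Library totals were 18914300 to 22480895 counts in 8 libraries and 41699032 to 42785476 in the other 4, namely UNx CreMinus replicate 1 and all of UNx CrePlus. Counts of Xist and of the Y-linked genes Ddx3y, Eif2s3y, Kdm5d and Uty divided the libraries into 5 male and 7 female ones: 2 of 3 UNx CrePlus libraries (replicates 1 and 2) were male, and so was 1 of 3 in each other group (UNx CreMinus replicate 1, sham CrePlus replicate 3 and sham CreMinus replicate 3). Depth and sex were thus uneven over the UNx groups, and fits with a term for either were run. UNx CreMinus was the only group with libraries of both depths, and its deep library, replicate 1, was also its only male one. The term for depth thus rests on how that library differs from the rest of its group. It cannot separate depth from sex or from that single kidney. Pkd1 averaged 43.4 ± 3.28 CPM (counts scaled to library size with TMM factors; SD, n = 3) in UNx CrePlus and 56.8 ± 12.9 CPM in UNx CreMinus kidneys, and 52.0 ± 10.5 CPM in sham CrePlus against 65.0 ± 10.3 CPM in sham CreMinus kidneys. Neither difference of Pkd1 passed edgeR's quasi-likelihood test (log2 fold changes −0.39 ± 0.18 and −0.32 ± 0.18 SE, adjusted p = 0.482 and 1). Proximal tubule markers, which identify kidney cortex, summed to 10140 to 13130 CPM in every library.

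Set per length of exons (RPKM, reads divided by exon length and library size, computed here from the counts), Cfb was the highest of the 8 genes in 12 of 12 libraries and Serping1 the second in 12 of 12. The median RPKM over the libraries was 159.5 for Cfb, 20.1 for Serping1, 7.97 for C3, 5.31 for Cfi, 3.60 for C1ra, 1.85 for Cd55, 0.59 for C4b and 0.44 for C3ar1. Neighbours with overlapping ranges, such as C3, Cfi and C1ra, or C4b and C3ar1, cannot be ordered beyond their spread between libraries. How reads from stretches shared with similar genes were counted is not given. The levels of C1ra, C4b and Cd55, which have such stretches, are uncertain for that reason too. The genes also differed in how far single kidneys lay apart. The highest library exceeded the lowest 16.7-fold for C4b, 5.70-fold for C3, 5.06-fold for C3ar1 and 4.48-fold for Cfi, and 1.77-fold for C1ra and 1.71-fold for Cfb.

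C1ra encodes the C1r protease of the first classical complex. It had 13.1, 11.6 and 13.002 CPM in UNx CrePlus kidneys and 8.49, 10.1 and 11.35 CPM in UNx CreMinus kidneys, so that every UNx CrePlus library lay above every UNx CreMinus library. The sham CrePlus kidneys had 12.3, 9.13 and 7.41 CPM and the sham CreMinus kidneys 12.6, 8.503 and 8.60 CPM, which overlapped. C1ra lies on chromosome 6 at 124512405 to 124523443 (GRCm38, plus strand), and 48% of the 50-base words of its transcripts also occur in those of its near-identical neighbour C1rb. C1rb was at 0 to 3 counts in each library, and how reads were divided between the pair is uncertain.

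C4b encodes complement component C4, the substrate of the classical and lectin proteases. It was at 21.1, 16.1 and 3.25 CPM in UNx CrePlus kidneys, against 3.45, 2.35 and 1.27 CPM in UNx CreMinus kidneys. In sham CrePlus kidneys it was at 4.66, 2.25 and 5.83 CPM and in sham CreMinus kidneys at 2.26, 2.96 and 9.02 CPM. UNx CrePlus replicates 1 and 2 stood above all other libraries, whereas replicate 3 lay below UNx CreMinus replicate 1, so the UNx groups overlapped. C4b (chromosome 17, 34728380 to 34743882, GRCm38) shares 35.2% of its 50-base words with C4a, which had 1 to 16 counts in a library. How reads were divided between C4b and C4a is uncertain.

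C3 encodes the central component that both pathways cut. It had 54.6, 36.4 and 24.2 CPM in UNx CrePlus kidneys and 17.8, 93.3 and 49.9 CPM in UNx CreMinus kidneys. The values were 73.3, 35.1 and 16.4 CPM in sham CrePlus and 75.3, 36.6 and 45.3 CPM in sham CreMinus kidneys. Libraries of 1 group lay as far apart as libraries of different groups, and no pair of groups was separated. C3 is on chromosome 17 at 57203970 to 57228136 (GRCm38, minus strand).

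Cfb encodes factor B, the serine protease precursor of the alternative pathway convertase. It was counted at 539.8, 624 and 471 CPM in UNx CrePlus kidneys and at 580.0, 416 and 374 CPM in UNx CreMinus kidneys. The sham CrePlus kidneys had 430.0, 419 and 639 CPM and the sham CreMinus kidneys 385, 421 and 487 CPM. All groups overlapped, and in each group the male libraries were above the female ones. Cfb (chromosome 17, 34856374 to 34862518, GRCm38) shares 79.5% of its exon bases with the annotated gene Gm20547 on the same strand, and reads there cannot be assigned to either gene alone.

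Serping1 encodes the C1 inhibitor, which blocks C1r and C1s. It was at 82.2, 73.8 and 45.6 CPM in UNx CrePlus kidneys and at 36.3, 47.8 and 54.4 CPM in UNx CreMinus kidneys. Sham CrePlus kidneys had 55.6, 33.6 and 36.9 CPM and sham CreMinus kidneys 58.4, 40.2 and 39.1 CPM. UNx CrePlus replicates 1 and 2 were the highest of the 12 libraries, and replicate 3 fell within the range of the UNx CreMinus kidneys. Serping1 is on chromosome 2 at 84765387 to 84775444 (GRCm38).

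Cfi encodes factor I, the protease that inactivates C3b and C4b. It had 24.4, 11.03 and 22.8 CPM in UNx CrePlus kidneys, and 5.45, 7.54 and 10.7 CPM in UNx CreMinus kidneys. All UNx CrePlus libraries lay above all UNx CreMinus libraries, by a narrow gap between UNx CrePlus replicate 2 and UNx CreMinus replicate 3. Sham CrePlus kidneys had 19.1, 14.7 and 5.98 CPM and sham CreMinus kidneys 12.5, 15.1 and 5.52 CPM, in both cases with the male library lowest. Cfi is on chromosome 3 at 129835884 to 129875332 (GRCm38).

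Cd55 encodes decay-accelerating factor, a membrane protein that takes apart the C3 convertases. Its values were 5.68, 13.6 and 7.14 CPM in UNx CrePlus kidneys, against 9.28, 9.89 and 10.995 CPM in UNx CreMinus kidneys. Sham CrePlus kidneys were at 8.48, 8.70 and 17.5 CPM and sham CreMinus kidneys at 8.01, 8.69 and 15.9 CPM. All groups overlapped, and in both sham groups the male library was the highest. Cd55 (chromosome 1, 130439027 to 130462744, GRCm38) shares 13.3% of its 50-base words with Cd55b, which had 0 to 6 counts in a library.

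C3ar1 encodes the receptor for C3a, the fragment released when C3 is cut, and is known from myeloid cells. It had 5.79, 3.79 and 2.59 CPM in UNx CrePlus kidneys and 1.18, 1.98 and 1.32 CPM in UNx CreMinus kidneys, without overlap. In sham CrePlus kidneys it had 3.60, 1.24 and 1.78 CPM, and in sham CreMinus kidneys 1.45, 1.36 and 5.98 CPM. The highest C3ar1 level of all 12 libraries was thus in a sham CreMinus kidney, replicate 3. C3ar1 is on chromosome 6 at 122847138 to 122856161 (GRCm38).

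**Figure D1:**
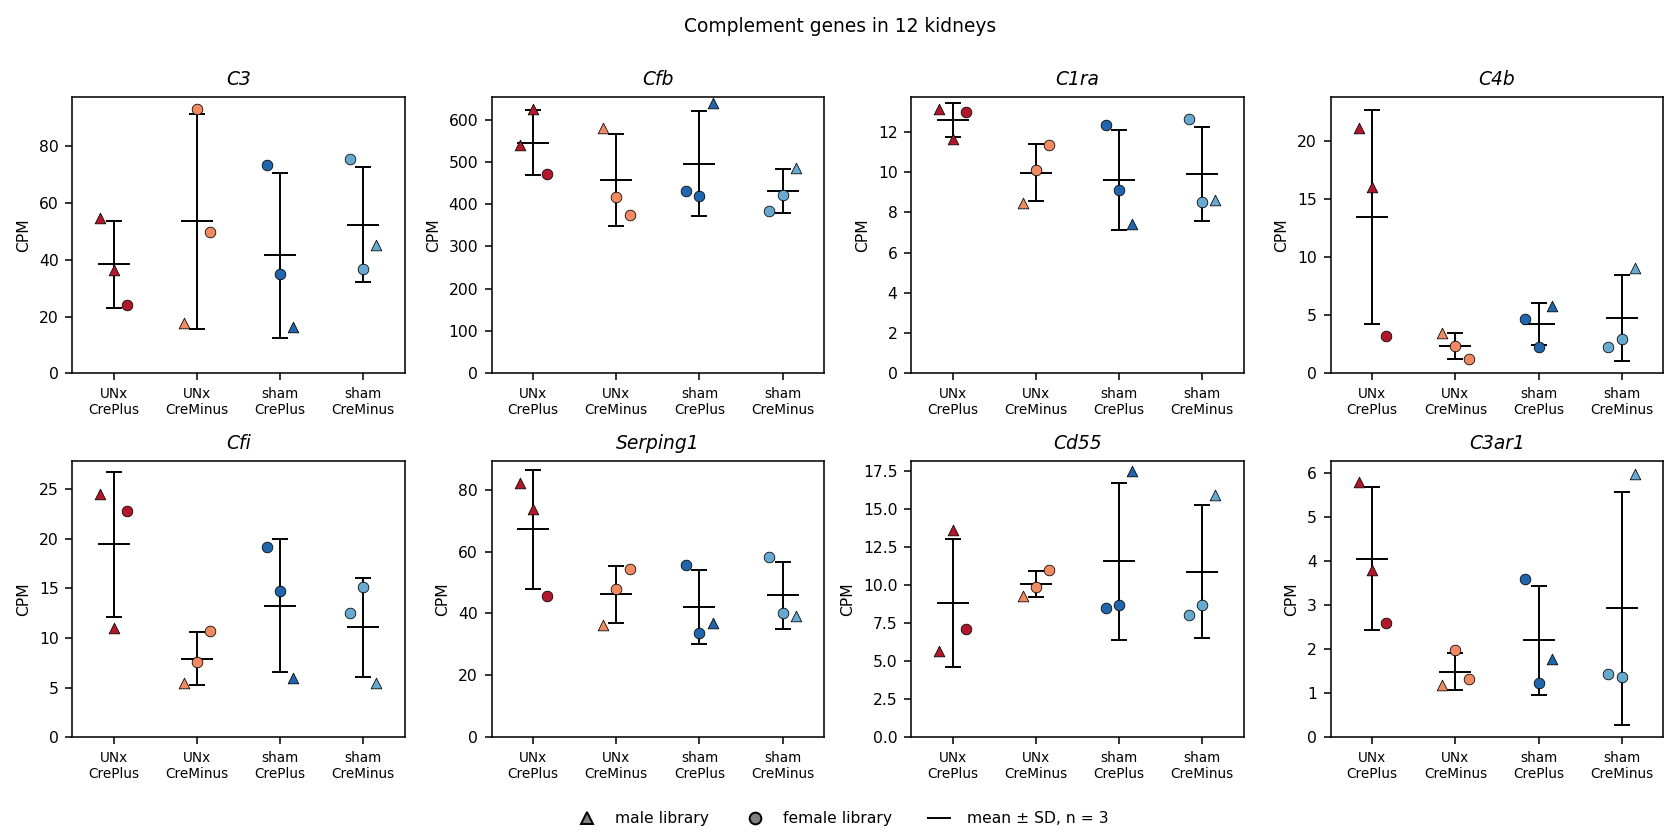
Level of each of the 8 complement genes in CPM (vertical axis, starting at 0) in the 12 libraries, by group (horizontal axis); points are single libraries, marked by sex, and bars the mean ± SD of 3 libraries. C1ra, Cfi and C3ar1 were higher in every UNx CrePlus library than in every UNx CreMinus library, while C3 and Cd55 overlapped between all groups.

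Promoters of 3 of these genes are shown, C1ra and C3ar1 because their UNx groups did not overlap and C3 as the central component. The RefSeq promoter table for GRCm38.p6 held 4 of the 8 genes, C3, C1ra, Cd55 and C3ar1. Each line gives the 250 bases before the RefSeq start, 5′ to 3′ on the gene's strand. RefSeq starts C1ra at 124512621 and C3ar1 at 122856157, inside the GENCODE M21 coordinates given above, so most of the printed C1ra bases lie within the gene as GENCODE annotates it. The start of C3 is the same in both. Capitals mark the only match among the 4 promoters to the motifs searched on both strands.
C1ra, chr6:124512371-124512620, plus strand: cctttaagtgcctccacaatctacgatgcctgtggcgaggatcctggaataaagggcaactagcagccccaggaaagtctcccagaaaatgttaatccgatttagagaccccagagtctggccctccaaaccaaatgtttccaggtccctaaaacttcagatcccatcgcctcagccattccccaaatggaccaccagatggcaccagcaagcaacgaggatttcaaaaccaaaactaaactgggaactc
C3, chr17:57228137-57228386, minus strand: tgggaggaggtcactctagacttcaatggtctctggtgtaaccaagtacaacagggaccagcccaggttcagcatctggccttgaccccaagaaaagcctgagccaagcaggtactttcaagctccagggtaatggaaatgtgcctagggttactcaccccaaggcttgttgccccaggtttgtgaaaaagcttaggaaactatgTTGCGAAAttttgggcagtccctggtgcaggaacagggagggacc
C3ar1, chr6:122856158-122856407, minus strand: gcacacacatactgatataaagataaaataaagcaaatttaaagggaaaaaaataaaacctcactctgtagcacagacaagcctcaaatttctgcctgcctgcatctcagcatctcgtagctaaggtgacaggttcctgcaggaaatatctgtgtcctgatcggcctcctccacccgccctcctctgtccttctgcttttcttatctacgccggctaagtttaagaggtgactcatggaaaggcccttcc

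The motifs were GAS (TTCNNNGAA), ISRE, NF-kB and C/EBP (TTNCGNAA), which were held by 7.02%, 2.98%, 7.25% and 2.04% of all 32851 promoters of that length. The C/EBP pattern was added after the C3 sequence had been seen. Its match in C3, TTGCGAAA, starts 45 bases before the start of the gene. A match is a description of the sequence and not evidence of binding.

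In UNx kidneys, CrePlus against CreMinus, the largest differences among the 8 genes were those of C4b, C3ar1 and Cfi, and none passed the test. C4b averaged 13.5 ± 9.21 CPM in UNx CrePlus and 2.35 ± 1.09 CPM in UNx CreMinus kidneys (SD, n = 3 each), a log2 fold change of 2.49 ± 0.72 (SE; edgeR quasi-likelihood test, adjusted p = 0.314). C3ar1 averaged 4.06 ± 1.62 CPM in UNx CrePlus and 1.49 ± 0.43 CPM in UNx CreMinus kidneys, a log2 fold change of 1.45 ± 0.60 (adjusted p = 0.440). Cfi averaged 19.4 ± 7.31 CPM in UNx CrePlus and 7.91 ± 2.66 CPM in UNx CreMinus kidneys, a log2 fold change of 1.30 ± 0.48 (adjusted p = 0.404).

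Smaller positive differences were found for Serping1 (log2 fold change 0.54 ± 0.26 SE, adjusted p = 0.497), C1ra (0.34 ± 0.21, adjusted p = 0.601) and Cfb (0.26 ± 0.21, adjusted p = 0.709). C3 and Cd55 had negative ones (−0.48 ± 0.61, adjusted p = 0.828, and −0.19 ± 0.38, adjusted p = 0.899). Some of these signs turned in other fits: C3 was at 0.047 with a term for sex and 1.107 with one for depth, Cfb at −0.090 with the term for depth, and Serping1 at −0.16 in female libraries alone. With edgeR, 0 of 8 genes passed an adjusted p of 0.05, where 21 of 14970 tested genes did (0.14%). At an unadjusted p under 0.05 there were 3 of 8 (C4b, Cfi and C3ar1), against 10.7% of all tested genes. Genes with every UNx CrePlus library above every UNx CreMinus library were 3 of 8 (C1ra, Cfi and C3ar1), against 8.33% of all tested genes. The median log2 fold change was 0.44 for the 8 genes and −0.01 for all tested genes. Because the 8 genes were chosen with earlier results of these data known, these shares describe them and do not test them as a group.

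Calls for C4b, Cfi and C3ar1 in UNx kidneys depended on the fit. The DESeq2 Wald test called C4b (2.51, adjusted p = 0.016) and no other of the 8, among 188 genes that it called in all. With a term for sex in edgeR, Cfi passed at 1.66 ± 0.32 SE (adjusted p = 0.0455), among 0.748% of tested genes, whereas C4b was at 1.81 ± 0.42 (adjusted p = 0.0953). The call of Cfi in that fit held in 3 of 12 repeats that each left out 1 library, with adjusted p from 0.0278 to 0.229. The DESeq2 Wald test with that term called both C4b (1.79, adjusted p = 0.000735) and Cfi (1.67, adjusted p = 2.22e-05). The authors' deposited table for the UNx kidneys, whose 267 genes with an adjusted p under 0.05 exceed the 21 here, included Cfi (log2 fold change 0.82, adjusted p = 0.015) and C3ar1 (0.83, adjusted p = 0.0162) and gave C4b as 0.53 (adjusted p = 0.147). These deposited fold changes are shrunken towards 0 and are not comparable in size with the edgeR values. With its fold-change prior switched on, DESeq2 differed from the authors' deposited table by a median of 0.000163 over 19312 genes and gave C4b as 0.53, whereas without the prior it gave 2.505 for C4b, 1.30 for Cfi and 1.45 for C3ar1. Leaving out 1 library at a time moved the edgeR log2 fold change of C4b between 2.00 and 2.95, and adjusted p stayed between 0.0771 and 0.910. In female libraries alone, where 1 UNx CrePlus library remains, C4b was at 0.85 and C3ar1 at 0.65 (adjusted p = 1 for both in edgeR), while Cfi was at 1.33 (adjusted p = 0.165). With a term for depth C4b, Cfi and C3ar1 were at 1.97, 1.83 and 1.77, each with an adjusted p of 0.867 in edgeR. That term rests on UNx CreMinus replicate 1, which was also the only male library of its group.

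In sham kidneys, none of the 8 genes differed detectably with Cre. The log2 fold changes, CrePlus over CreMinus, ran from −0.40 (C3ar1) and −0.33 (C3) to 0.20 (Cfb) and 0.26 (Cfi), and those of C4b, Serping1, C1ra and Cd55 were −0.16, −0.13, −0.04 and 0.09. All adjusted p were 1 in edgeR's quasi-likelihood test. Of the 8 genes, 0 passed, against 4 of all tested genes (0.0267%), 0 had an unadjusted p under 0.05, against 4.05%, and DESeq2 called 0. The libraries of the sham groups overlapped for all 8 genes, where 8.16% of tested genes showed no overlap. The authors deposited a sham comparison with all libraries and a further one without sham CrePlus replicate 1. C3 was at −0.06 in the former and −0.48 in the latter (adjusted p = 0.765 in the latter). Averaged over both operations, C4b (1.16, adjusted p = 0.401) and Cfi (0.78, adjusted p = 0.405) had the smallest p. In that average 0 of 8 passed, against 0.521% of tested genes, 2 of 8 had an unadjusted p under 0.05, against 11.8%, and DESeq2 called 0.

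In CrePlus kidneys, UNx against sham, C4b and Serping1 came closest to a difference. C4b averaged 13.5 ± 9.21 CPM in UNx CrePlus and 4.25 ± 1.83 CPM in sham CrePlus kidneys (SD, n = 3 each; log2 fold change 1.66 ± 0.70 SE, adjusted p = 0.717 in edgeR). Serping1 averaged 67.2 ± 19.2 CPM in UNx CrePlus and 42.0 ± 11.9 CPM in sham CrePlus kidneys (0.68 ± 0.27 SE, adjusted p = 0.696). The value of C4b was 0.89 with a term for sex and 0.74 with one for depth, and in female libraries alone C4b was at −0.088 and Serping1 at 0.035. All UNx CrePlus libraries had the higher totals and all sham CrePlus libraries the lower ones, so surgery and depth cannot be told apart here. The other values were 0.87 for C3ar1, 0.55 for Cfi, 0.39 for C1ra, 0.14 for Cfb, −0.12 for C3 and −0.39 for Cd55. In edgeR 0 of 8 genes passed, as did 0% of tested genes, 2 of 8 had an unadjusted p under 0.05, against 6.83%, and DESeq2 called 0. No gene of the 8 was free of overlap between the groups, against 9.78% of tested genes.

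In CreMinus kidneys, UNx against sham, C4b (−0.98) and C3ar1 (−0.98) had the largest log2 fold changes, in the direction opposite to CrePlus kidneys. For C3ar1 this rested on sham CreMinus replicate 3, without which it was at 0.077, and in female libraries alone it was at 0.23. C4b stayed between −1.39 and −0.12 in the other fits, but in CrePlus kidneys it was at −0.088 in female libraries alone. Cfi was at −0.49, Cd55 at −0.11, Cfb at 0.08, C3 at 0.03, and C1ra and Serping1 at 0.01 each, all with an adjusted p of 1 in edgeR's test. The counts were 0 of 8 passed, against 0%, 0 of 8 at an unadjusted p under 0.05, against 1.3%, and 0 called by DESeq2. The comparisons share libraries, since each group enters both a comparison of Cre and one of surgery. The interaction, which tests whether the difference with Cre depended on surgery, was 2.65 ± 1.00 SE for C4b and 1.85 ± 0.84 for C3ar1, with an adjusted p of 1 in edgeR for all 8 genes. For it, 0 of 8 passed, against 0%, 1 of 8 had an unadjusted p under 0.05, against 1.85%, and DESeq2 called 0. UNx against sham averaged over Cre status gave log2 fold changes from −0.25 (Cd55) to 0.34 (C4b and Serping1), with adjusted p of 0.894 or more. There 0 of 8 passed, against 0%, 0 of 8 had an unadjusted p under 0.05, against 5.66%, and DESeq2 called 0.

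**Figure D2:**
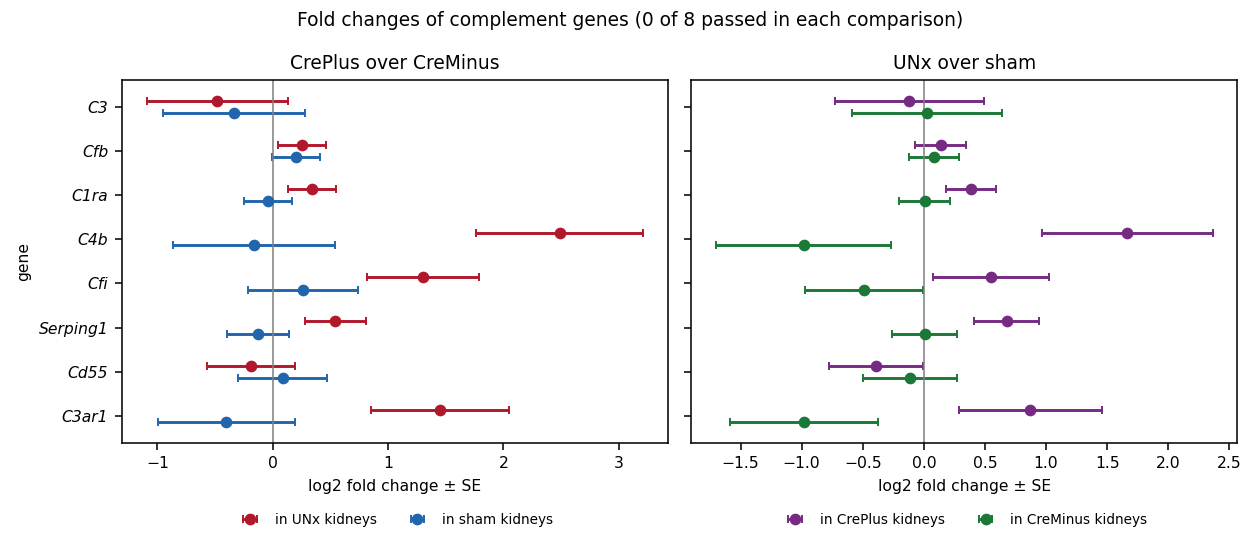
Log2 fold changes ± SE of the 8 genes (horizontal axes), for CrePlus over CreMinus on the left, in UNx and in sham kidneys, and for UNx over sham on the right, in CrePlus and in CreMinus kidneys; points are edgeR estimates from 12 libraries. C4b in UNx kidneys lies farthest from 0, at 2.49, and C4b and C3ar1 point in opposite directions in CrePlus and CreMinus kidneys on the right, with 0 of 8 genes passing in each comparison. The direction of C3ar1 in CreMinus kidneys turned without sham CreMinus replicate 3.

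Kidneys that were high for C4b were often high for C3ar1 too. Likeness between genes was measured as the root mean square difference of their log2 CPM after each gene was set to mean 0 and SD 1 over the 12 libraries, so that 0 means the same pattern. Among the 8 genes, C4b and C3ar1 were nearest (0.57), followed by C1ra and Serping1 (0.606), C1ra and Cfi (0.706) and Cfb and C4b (0.709). Cfi and Cd55 were the farthest apart (1.81). UNx CrePlus replicates 1 and 2 and sham CreMinus replicate 3 were the top 3 libraries for both C4b and C3ar1.

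**Figure D3:**
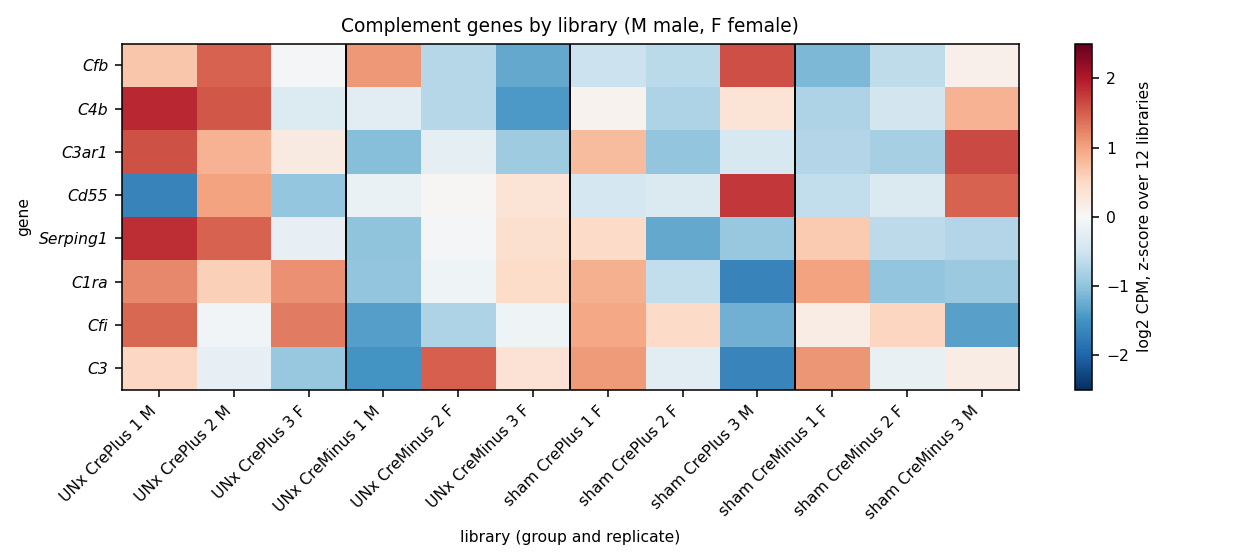
Log2 CPM of the 8 genes (rows) in the 12 libraries (columns, with M for male and F for female), each gene as a z-score over the libraries, shown as colour. C4b and C3ar1 are high together in UNx CrePlus replicates 1 and 2 and in sham CreMinus replicate 3, and Cfi and Cd55 run opposite in most libraries.

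Outside the 8, the nearest patterns among 12791 genes with a mean of at least 1 CPM were sought. C3ar1 was nearest to C1qb (0.294), which encodes a chain of C1q, and to Pirb (0.317). The nearest genes were Pqlc3 (0.396) and Lmnb2 (0.412) for C4b, Twf1 (0.166) and Clic4 (0.204) for Cfb, and Fblim1 (0.159) and Oasl2 (0.212) for Serping1. For Cfi they were Aida (0.359) and Golm1 (0.366), for C1ra Fut10 (0.307), for C3 Reck (0.326) and Mmrn2 (0.450), and for Cd55 Slc35b3 (0.292) and Nr2f6 (0.390).

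Summed levels of markers of other cell types were set beside these genes. The summed level of 10 macrophage markers was 216, 236 and 128.5 CPM in UNx CrePlus replicates 1, 2 and 3, against 117 to 129.6 CPM in UNx CreMinus kidneys, 115 to 190.4 CPM in sham CrePlus and 109 to 264 CPM in sham CreMinus kidneys. None of the 10 markers was at 0 in any library. The highest sum was in sham CreMinus replicate 3, the library with the highest C3ar1. For 9 of 10 markers the log2 fold change of UNx CrePlus over UNx CreMinus was positive (median 1.22, 0 of 10 called by edgeR). Of all tested genes, 7152 of 14970 were positive in that comparison (median −0.01) and 0.14% were called. Fibroblast markers summed to 243 to 609.8 CPM in UNx CrePlus and 179 to 338 CPM in UNx CreMinus kidneys. Their sums were 143 to 450 CPM in sham CrePlus and 178 to 318 CPM in sham CreMinus kidneys. Markers of injured tubule summed to 2290 to 3686 CPM in UNx CrePlus and 1010 to 3307 CPM in UNx CreMinus kidneys. These sums were 749 to 3249 CPM in sham CrePlus and 880 to 2121 CPM in sham CreMinus kidneys. For both lists the UNx groups overlapped. Hepatocyte markers summed to 129.7 to 222 CPM in UNx CrePlus and 201 to 309.9 CPM in UNx CreMinus kidneys. Of these markers 0 of 6 were called, against the same 0.14% of all tested genes. Neutrophil markers stayed at 0.247 to 4.30 CPM. The part of these cell types in the complement values was not tested, and in whole tissue fewer cells of a type and less RNA per cell cannot be told apart.

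**Figure D4:**
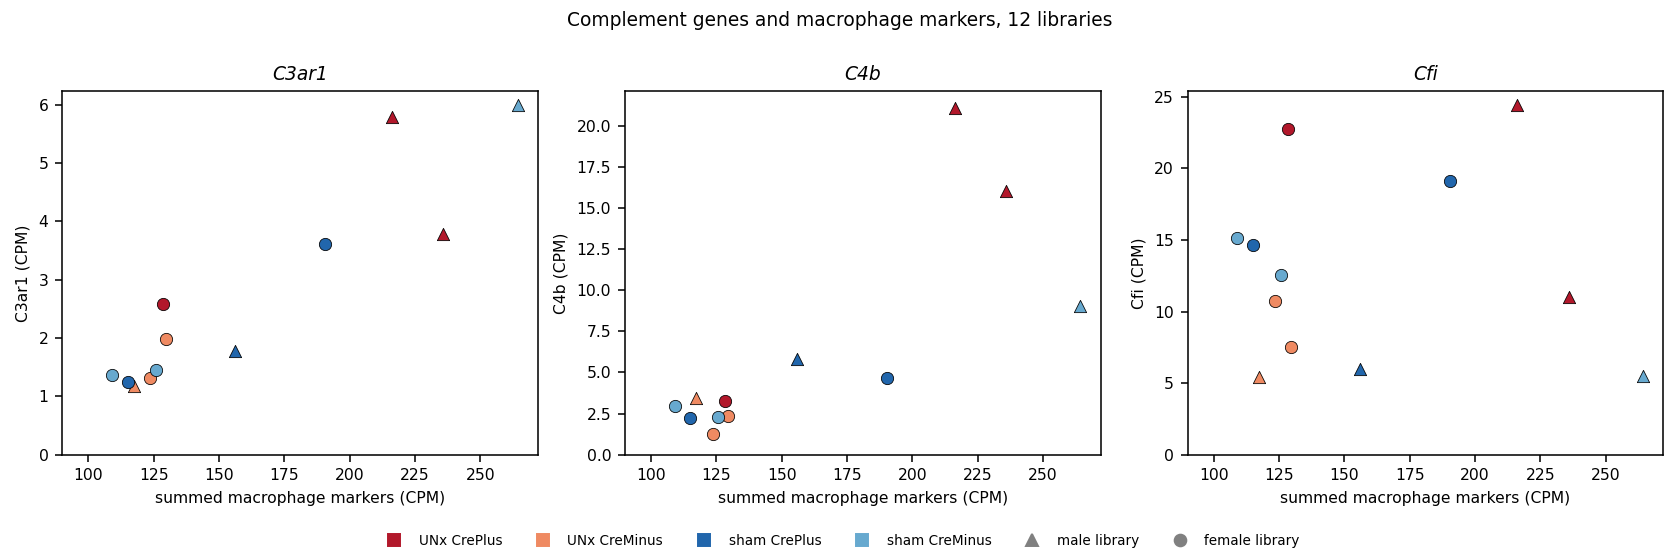
Level of complement genes in CPM (vertical axes) against the summed CPM of 10 macrophage markers (horizontal axes) in 12 libraries, with symbols for group and sex. For C3ar1, sham CreMinus replicate 3 and UNx CrePlus replicate 1 are high on both axes; the library with the highest sum has 264 CPM of macrophage markers.

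Differences by sex passed the test for 3 of the 8 genes, where 20.4% of all tested genes passed. Sex and depth were partly tied, since in UNx CreMinus kidneys the only male library was also the only one above 3e+07 counts. In the edgeR fit with group and sex, which was added after the data had been seen, Cfb and C4b were higher and Cfi lower in male than in female kidneys. Cfb ranged from 486.5 to 639 CPM with a median of 580.0 CPM in 5 male libraries and from 374 to 471 CPM with a median of 419 CPM in 7 female libraries, without overlap (log2 fold change 0.43 ± 0.08 SE, adjusted p = 0.00269). C4b ranged from 3.45 to 21.1 CPM with a median of 9.02 CPM in male libraries and from 1.27 to 4.66 CPM with a median of 2.35 CPM in female libraries (1.52 ± 0.30 SE, adjusted p = 0.00511 in edgeR). The male libraries were above the female libraries of the same group in all 4 groups for both genes.

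Cfi ranged from 5.45 to 24.4 CPM with a median of 5.98 CPM in male libraries and from 7.54 to 22.8 CPM with a median of 14.7 CPM in female libraries (log2 fold change −0.95 ± 0.25 SE, adjusted p = 0.0194 in edgeR). The male library was the lowest in 3 groups, but in UNx CrePlus kidneys the 2 male libraries, at 24.4 and 11.03 CPM, lay on either side of the female one, at 22.8 CPM. Without sham CreMinus replicate 3 the value of Cfi was −0.83 (adjusted p = 0.0803) and without sham CrePlus replicate 3 it was −0.78 (adjusted p = 0.100), so its call rested on those male libraries. Cfb and C4b passed in each of the 12 repeats that left out 1 library, with adjusted p up to 0.0235 and 0.0328.

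Of the 8 genes, 3 passed by sex, 2 higher and 1 lower, where 20.4% of all tested genes passed (10.5% higher and 9.89% lower). Genes with all male above all female libraries were 1 of 8, Cfb, against 5.2% of tested genes. Cd55 (0.57 ± 0.23 SE, adjusted p = 0.0996), C3ar1 (0.63 ± 0.42, adjusted p = 0.317), C3 (−0.78 ± 0.48, adjusted p = 0.281), C1ra (−0.30 ± 0.13, adjusted p = 0.126) and Serping1 (−0.09, adjusted p = 0.799) did not pass. Cd55 did pass without UNx CrePlus replicate 1 (0.69, adjusted p = 0.0159), without UNx CreMinus replicate 1 (0.79, adjusted p = 0.0446) and with DESeq2 (0.59, adjusted p = 0.045). Since UNx CrePlus kidneys were male in 2 of 3 libraries and UNx CreMinus kidneys in 1 of 3, the difference of C4b with Cre in UNx kidneys and its difference with sex share libraries.

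**Figure D5:**
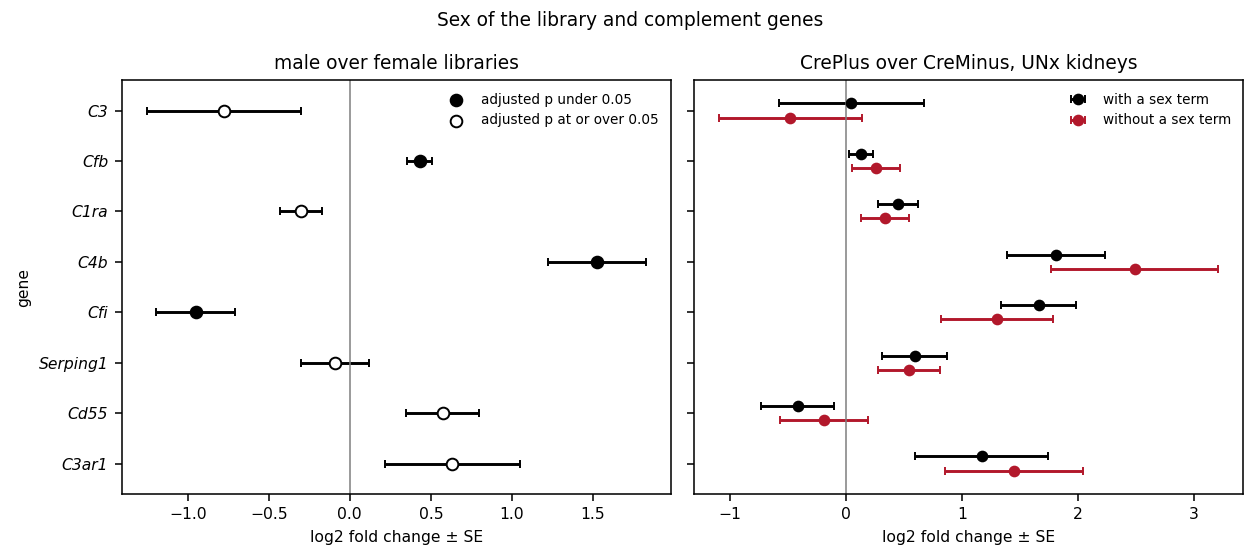
Left, log2 fold change ± SE of male over female libraries for the 8 genes (5 male and 7 female libraries; edgeR fit with group and sex); right, CrePlus over CreMinus in UNx kidneys, with and without a term for sex. On the left Cfb (0.43), C4b (1.52) and Cfi (−0.95) passed, and on the right the term moves Cfi to 1.66 and C4b to 1.81.

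The other genes of the complement system, 42 listed by pathway step, were all found in the table, and 30 were tested. In UNx kidneys, CrePlus against CreMinus, 0 of 30 passed in edgeR or DESeq2, against 0.14% of tested genes in edgeR. Of the 30, 6 had an unadjusted p under 0.05, against 10.7% of all tested genes, and 6 had every UNx CrePlus library above every UNx CreMinus library, against 8.33%. The median log2 fold change of the 30 was 0.19, against −0.01 for all tested genes. This list, too, was chosen with earlier results of these data known. The genes of smallest p were C7, a terminal component, Itgax, which encodes a chain of a complement receptor, and C1qb. C7 was at 18.8, 9.70 and 5.08 CPM in UNx CrePlus and 2.42, 4.92 and 3.29 CPM in UNx CreMinus kidneys (1.67 ± 0.51 SE, adjusted p = 0.339 in edgeR). C1qb was at 28.6, 28.6 and 15.95 CPM and at 10.3, 12.1 and 10.9953 CPM in the same groups (1.13 ± 0.40 SE, adjusted p = 0.388), and Itgax at 1.37 ± 0.45 SE (adjusted p = 0.374). These 3 genes were among the 6 without overlap. C4a, the paralog of C4b, was at 0.31 (adjusted p = 0.900), and C1rb and Cd55b were below the filter.

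Elsewhere 0 of 30 passed with edgeR in any of the comparisons of Cre or surgery. Of all tested genes, 0.0267% passed for Cre in sham kidneys, 0.521% for Cre averaged over surgery and 0% in each comparison of surgery. In sham kidneys the smallest p among them belonged to Cfd, factor D, at 8.60 CPM in sham CrePlus replicate 3 and at most 0.83 CPM in every other library, with C8a (0.56) and Cd59a (−0.40) next. With surgery, C8a, a terminal component, was at 27.95 to 39.4 CPM in UNx CrePlus and 43.9 to 83.6 CPM in sham CrePlus kidneys, without overlap (log2 fold change −0.84 ± 0.30 SE, adjusted p = 0.692 in edgeR). It was the only 1 of the 30 without overlap there, against 9.78% of all tested genes. In CreMinus kidneys the genes of smallest p were Clu (0.56), Mbl1 (0.41) and C1qb (−0.51), each with an adjusted p of 1. By sex, 6 of 30 passed, 1 higher in male kidneys and 5 lower, a share near the 20.4% of all tested genes. The higher one was C8g (log2 fold change 0.49, adjusted p = 0.00959 in edgeR), and the lower ones were Cpn1, a carboxypeptidase subunit that inactivates anaphylatoxins (−1.02, adjusted p = 0.000124), C2 (−0.66), C8a (−0.60), Cd59a (−0.63) and Mbl2 (−1.39). C2, the classical counterpart of factor B, averaged 59.4 CPM in male and 90.1 CPM in female libraries, the direction opposite to Cfb.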

How the data were processed

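Per the labels' protocols, RNA of 12 kidneys was extracted with a column kit, treated with DNase and made into libraries with SMART-Seq v4, which does not mark the strand. The authors deposited 6 tables with unnormalized read counts for each gene, made per the submitters' processing notes with FastQC 0.11.5, cutadapt 1.11, HTSeq and DESeq2 on mm10 and GRCm38; aligner, annotation and strand setting are not given there. The deposited tables also held the authors' mean normalized signal, log2 fold changes with errors, a test score and p-values.

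The tests were run with edgeR 4.0.16 under R 4.3.3 (filterByExpr, TMM factors, glmQLFit and glmQLFTest) in 1 model with 4 group means over 12 libraries, with 8 residual degrees of freedom and Benjamini-Hochberg adjustment over 14970 genes. The 5 repeated symbols were kept once. DESeq2 1.42.0 was the other test, and was also run with a prior on the fold change for comparison with the deposited values. SE is the absolute log2 fold change over the root of the F statistic. The pipeline was tested on simulated counts with 200 genes changed. Intervals between libraries and p-values measure the spread of these samples, which the labels do not describe as separate cultures or litters, and reads carry no molecular identifiers. The labels give no sex; it was read from Xist and Y-linked genes. RPKM used exon unions of GENCODE M21.

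The members and lists were chosen with earlier results of these data known. Named were all 8 members and, of the other complement genes, those called and otherwise up to 3 of smallest p in a comparison, the paralogs C4a, C1rb and Cd55b, and the 2 genes most alike to each member; 1 result under this rule is not reported here. Alternatives were other size factors, no filter on low counts, DESeq2, a term for sex, a term for depth above 3e+07 counts, female libraries only, only the 2 groups compared, and leaving out each library; the comparison by sex was added after the data had been seen.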

Additional observations from a re-analysis of the deposited data

How the results depend on the processing

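The number of genes called was more sensitive to the fit than the directions of C4b, Cfi, C3ar1 and C1ra in UNx kidneys. The directions of C3, Cfb, Serping1 and Cd55 with Cre in UNx kidneys turned in some fits. For Cre in UNx kidneys, 21 genes were called, against 13 with DESeq2 size factors, 188 with the DESeq2 test, 112 with a sex term, 4 with a depth term, 5 in female libraries, 9 with only the 2 groups, and 6 to 48 without 1 library. For Cre in sham kidneys the count was 4, against 43 with DESeq2, 10 with the sex term, 7 in female libraries, 0 with only the 2 groups and 0 to 3 without 1 library. Averaged over surgery it was 78, against 385 with DESeq2, 295 with the sex term, 11 with the depth term, 27 in female libraries and 25 to 136 without 1 library. For surgery, where edgeR called 0, DESeq2 called 9 in CrePlus kidneys, 2 in CreMinus kidneys and 15 on average, and 0 to 14 were called on average without 1 library. Of the 8 genes, DESeq2 without the sex term and edgeR with it each called 1 for Cre in UNx kidneys. DESeq2 with the sex term called both C4b and Cfi there. By sex, 2 to 4 of the 8 were called without 1 library. Signs turned as follows, and the cause was not tested. The term for depth rests on UNx CreMinus replicate 1, the only library of its group above 3e+07 counts and its only male one. All UNx CrePlus libraries were above that depth and all sham libraries below it, so the values with that term cannot be read as effects of depth. With the sex term, C3 was at 0.047 for Cre in UNx kidneys, 0.38 for surgery in CrePlus and −0.12 in CreMinus kidneys, 0.13 for surgery on average and 0.51 for the interaction, C4b at 0.059 for Cre in sham kidneys and Cfb at −0.052 for the interaction. With the depth term, C3 was at 1.107 and Cfb at −0.090 for Cre in UNx kidneys, C3 at 1.89 and Cfb at −0.42 for surgery in CrePlus kidneys, Cfb at −0.13 in CreMinus kidneys, C3 at 0.39 and Cd55 at 0.0055 for Cre on average, C3 at 1.17, Cfb at −0.27, C4b at −0.32 and C3ar1 at 0.26 for surgery on average, and C3 at 1.44 and Cfb at −0.29 for the interaction. In female libraries, which leave 1 UNx CrePlus library that is assumed to vary like the other groups, Serping1 was at −0.16 for Cre in UNx kidneys, C4b at 0.41, C1ra at 0.026 and C3ar1 at 0.79 for Cre in sham kidneys, C4b at −0.088 for surgery in CrePlus kidneys, Cfb at −0.031, Cd55 at 0.32 and C3ar1 at 0.23 in CreMinus kidneys, Serping1 at −0.15 for Cre on average, C4b at −0.31, C3ar1 at 0.16, Cfi at −0.084 and Cd55 at 0.029 for surgery on average, and Serping1 at −0.016 and C3ar1 at −0.14 for the interaction. Without 1 library, signs turned for Cre in UNx kidneys in C3 (−0.90 to 0.19) and Cd55 (−0.65 to 0.035), and for Cre in sham kidneys in C3 (−1.03 to 0.049), Cfb (−0.021 to 0.30), C4b (−0.51 to 0.70), C1ra (−0.26 to 0.16), Serping1 (−0.38 to 0.071), Cfi (−0.10 to 0.61), Cd55 (−0.34 to 0.47) and C3ar1 (−0.96 to 0.66). The same held for surgery in CrePlus kidneys in C3 (−0.50 to 0.57) and Cd55 (−0.85 to 0.036), and in CreMinus kidneys in C3 (−0.64 to 0.45), Cfb (−0.13 to 0.21), C1ra (−0.094 to 0.21), Serping1 (−0.13 to 0.21), Cd55 (−0.30 to 0.27) and C3ar1 (−1.33 to 0.077). It held on average for Cre in Cd55 (−0.28 to 0.14), for surgery in C3 (−0.38 to 0.30), Cfi (−0.15 to 0.20) and C3ar1 (−0.23 to 0.47), for the interaction in C3 (−0.57 to 0.54), Cfb (−0.080 to 0.28) and Cd55 (−0.74 to 0.15), and by sex in Serping1 (−0.37 to 0.054). No paired analysis was possible because the labels give no replicate numbers. C4b and C3ar1 rest on 25 to 911 and 26 to 250 counts a library, the lowest depth of the 8.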
